A study of Mus musculus with 4 samples.

Results

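Among the CD8 T cells sorted from B16F10 tumours, 1411 of 38316 barcodes were Havcr2-positive cells without a mitotic programme, the class usually called exhausted. A barcode belonged to this class if it carried at least 1 UMI (a counted RNA molecule) of Havcr2 and of Pdcd1, Lag3 or both, and at most 1 UMI summed over the cycling genes Mki67, Top2a, Birc5 and Ube2c. The cells were thus selected on the measured UMIs of these 7 genes, so the levels of the 7 genes are given below as a description, with no test, and so is every comparison of the class with the remaining 36905 barcodes. The libraries sgScr replicate 1 and 2 held 204 and 192 such cells, and the libraries sgArid1a replicate 1 and 2 held 396 and 619.

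Each sample consisted of CD8+ T cells isolated by flow cytometry (CD45+ CD3+ CD8+, viability dye negative) from tumours of B16F10, a transplantable mouse melanoma line, in C57BL/6J mice that were 6 to 8 weeks old. The 2 control samples are labelled sgScr and the 2 test samples sgArid1a, and the second name points to a guide directed at Arid1a, which encodes a subunit through which the SWI/SNF chromatin remodeller contacts DNA. No other allele or treatment is given for either group, and the labels do not name the cells that carried the guides. The title of the series places the work in a study of ARID1A, R-loops, STING and type I interferon. As the labels name no separate animals for the replicates, all p-values measure the spread between these 4 samples only, and that spread may be technical.

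T cells that meet their antigen continuously, as in a growing tumour, enter a state called exhaustion. They accumulate inhibitory receptors such as PD-1 (Pdcd1), TIM-3 (Havcr2) and LAG-3 (Lag3) and depend on the transcription factor TOX. A progenitor form keeps the factor TCF-1 (Tcf7) and the receptor SLAMF6 and renews the pool, while TIM-3 marks the terminal form, which carries granzymes and divides little.

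The deposited matrices held 7376 to 13085 barcodes and 32484099 to 81916795 UMIs per sample. The class contributed 1657338 and 1508184 UMIs in the sgScr samples and 2219978 and 5643773 in the sgArid1a samples. Its cells were deeper than the rest, with medians of 7160, 6978.5, 5205.5 and 8321 UMIs per cell in the order sgScr replicate 1, sgScr replicate 2, sgArid1a replicate 1 and sgArid1a replicate 2, an order kept wherever 4 values follow each other. The other barcodes had medians of 3716, 3559, 2353 and 3910 UMIs. The library sgArid1a replicate 1 stood apart by its shallow cells, since 36.7% of its barcodes had fewer than 2000 UMIs against 7.17 and 9.08% in the sgScr samples. For this reason shares said to be thinned or at 2000 UMIs were taken after each barcode was thinned at random to 2000 UMIs. Shallower barcodes were dropped there. All other shares rest on unthinned counts and are not matched for depth. Of the 1411 cells, 72 (5.10%) carried a barcode that occurred in another library as well.

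All 3 marker receptors were detected in 75, 78.6, 68.2 and 84.3% of the cells. Pairs of Havcr2 and Pdcd1 without Lag3 made up 20.6, 16.1, 21.5 and 12.6%, and pairs of Havcr2 and Lag3 without Pdcd1 made up 4.41, 5.21, 10.4 and 3.07%. The marker makeup therefore varied as much between the sgArid1a replicates as between the groups. Havcr2 rested on a single UMI in 48.0, 51.6, 63.6 and 53.6% of the cells, the highest share falling in the shallowest library. Among all other barcodes, which include the cycling cells with the same receptors, a Havcr2 UMI occurred in 3.43, 3.55, 7.68 and 10.3%. The share in a cell type that should lack the receptor was not analysed here. The part of free RNA or doublets in these UMIs was not tested.

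The summed levels of the rule genes describe the class as selected. Havcr2 stood at 264, 269, 284 and 210 CPM (UMIs per 1000000 UMIs of the class in that sample), Pdcd1 at 754, 748, 580 and 641 CPM, and Lag3 at 354, 386, 346 and 338 CPM. Mki67, a proliferation antigen, stood at 4.83, 15.3, 7.21 and 6.56 CPM.

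Cells on both sides of the edge of the rule were compared as a description. Cells just inside it, with 1 UMI of Havcr2, held Tcf7 at 68.8, 53.5, 17.8 and 47.1 CPM. Cells just outside it, with Pdcd1 and Lag3 but no Havcr2 UMI (199, 172, 476 and 642 cells), held Tcf7 at 151, 205, 82.4 and 138 CPM. Gzmb, the main killing protease of T cells, stood at 506, 526, 828 and 809 CPM inside and at 193, 181, 490 and 433 CPM outside. Tcf7 was thus higher and Gzmb lower outside in each of the 4 samples.

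The class was low in mitotic transcripts but kept S phase transcripts, those of DNA synthesis. The summed level of 25 G2/M phase genes, 4 of which the rule used, was 319, 331, 445 and 345 CPM. In the 2396 cells with the same receptors but 2 or more UMIs of the cycling genes it was 4815, 4561, 4894 and 4411 CPM, and in the cells with Tcf7 and Pdcd1 but no Havcr2 UMI (455, 423, 548 and 1145 cells) 1441, 1672, 1802 and 1862 CPM. The rule capped the 4 genes in the class, so these gaps were partly set by the selection. Of the 21 G2/M phase genes outside the rule, 19 had at least 20 CPM. These 19 were lower in the class than in all other barcodes in all 4 samples, with a median log2 ratio of -2.68. This too describes the selection, with no test. The summed level of 25 S phase genes, none of them in the rule, was 1273, 1203, 1744 and 1703 CPM in the class. It was 1585, 1625, 2132 and 2164 CPM in the cells with Tcf7 and Pdcd1 and 3617, 3417, 3835 and 3680 CPM in the cycling cells with the same receptors. The class lay under both populations in every sample. In all other barcodes the level was 1128, 1159, 1989 and 2108 CPM, so the class was higher than these in sgScr and lower in sgArid1a. The cells are called Havcr2-positive non-mitotic cells from here on.

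**Figure D1:**
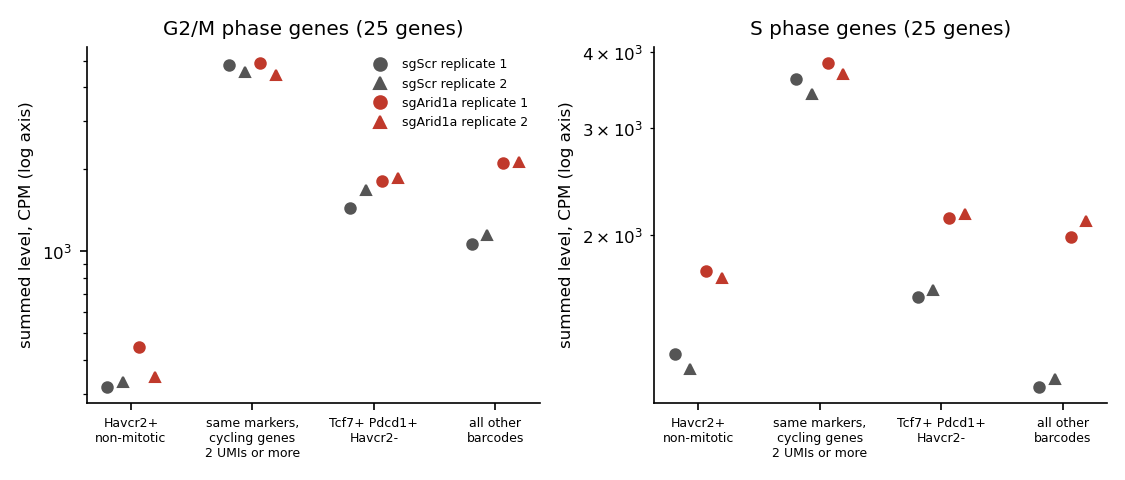
Summed CPM (log axis) of 25 G2/M phase genes (left) and 25 S phase genes (right) in the Havcr2-positive non-mitotic cells and in other groups of barcodes, 1 point per sample, sgScr grey and sgArid1a red. The G2/M level of the class lies between 319 and 445 CPM, below every other group. That gap is partly set by the selection, as the 25 G2/M genes include the cycling genes capped by the rule. The S phase level of the class is 1203 to 1744 CPM. It lies above that of all other barcodes in both sgScr samples and below it in both sgArid1a samples.

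At 2000 UMIs per cell, 54.7 and 51.9% of the sgScr cells of the class and 61.4 and 59.7% of the sgArid1a cells held 2 or more S phase UMIs. The groups did not overlap, and the difference was 7.25 percentage points (exact two-sided permutation test p = 0.33, the smallest that 2 against 2 samples allow). Among the cells with Tcf7 and Pdcd1 the same share was 44.2, 43.25, 50.5 and 52.4%, and among all other barcodes 34.2, 35.5, 46.6 and 46.1%. Without thinning the shares in the class were 91.7, 91.1, 86.1 and 95.5%, and the difference was -0.61 points.

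The cells carried T cell genes, and lists of other lineages summed to lower levels. The T cell marker list summed to 7948, 8201, 7642 and 7754 CPM, and no cell lacked a UMI of it. Nevertheless 67.6, 64.1, 54.3 and 72.7% of the cells held 2 or more UMIs of B cell, macrophage, dendritic or melanoma genes. Melanoma genes summed to 1.33 to 3.02 CPM, erythroid genes to 0 to 0.177 CPM, and CD4 and regulatory T cell genes to 3.32 to 8.45 CPM. B cell genes summed to 118, 180, 81.1 and 86.5 CPM and were the one foreign list higher in both sgScr samples. Natural killer genes summed to 21.7, 7.96, 59.5 and 35.1 CPM, with the defining receptor gene Ncr1 at 0 in 3 of the 4 samples. Macrophage genes summed to 205, 200, 244 and 246 CPM, nearly all of it Cst3, which many cells express, at 179, 168, 222 and 224 CPM. Dendritic cell and MHC class II genes summed to 112, 244, 268 and 152 CPM, with Flt3 and Clec9a at 0.

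Set beside all other barcodes, as a description of the selection, the class was high in exhaustion genes and low in progenitor genes. Tox, the factor that installs exhaustion, averaged 285 CPM over the 4 samples against 94.2 CPM in the other barcodes. Tigit and Entpd1 (CD39), further surface proteins of exhausted cells, averaged 509 against 124 CPM and 72.8 against 17.9 CPM. Tcf7 averaged 34.9 against 308 CPM. Among 12 further inhibitory receptor genes with at least 20 CPM, 11 were higher in the class in all 4 samples, with a median log2 ratio of 1.49 (ratios on CPM + 1). Among 17 progenitor and memory genes, 16 were lower in all 4, with a median of -2.75. Over all 5435 genes at that level 2069 were higher and 1417 lower in all 4 samples, and the median was 0.07. The chemokines Ccl3 and Ccl4, which recruit leukocytes, averaged 1226 against 202 CPM and 2585 against 400 CPM, and were among the 10 genes with the highest ratio.

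Single cells of the class were compared for 6 of the lists. At 2000 UMIs per cell, the summed UMIs of the list without Ccl5 had a median of 3, 3, 5 and 5, while the highest single cell held 503, 108, 502 and 586. Cytotoxic genes had medians of 16, 15, 15 and 15 UMIs and a highest cell of 52, 50, 68 and 296. The 20 progenitor and memory genes were at 0 in 49.3, 54.0, 70.8 and 62.9% of cells, the sgArid1a samples being the higher. Tcf7 itself was detected in 7.46, 4.23, 3.22 and 7.15% of the thinned cells (16.7, 16.7, 6.57 and 16.5% unthinned), and the groups overlapped (difference -0.66 points, exact permutation p = 0.667). In all other barcodes the thinned share was 55.6, 55.6, 32.9 and 40.9%.

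The first comparison asked how much of each sample the class made up. On unthinned counts it was 2.67 and 2.68% of the sgScr barcodes and 3.7 and 4.84% of the sgArid1a barcodes. The groups did not overlap, and the means of 2.67 ± 0.0072% and 4.27 ± 0.81% (SD, n = 2) differed by 1.60 points (exact two-sided permutation p = 0.33, the smallest possible). With the rule applied to thinned counts the shares were 1.45, 1.80, 3.2 and 2.84%. The sgScr samples held 216 and 215 cycling cells with the same receptors, and the sgArid1a samples 738 and 1227.

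Receptor segments separated the groups further than the shares above. Trbv segments encode the variable part of the receptor beta chain, and a raised share can come with expanded clones. A segment was called where it had 2 or more UMIs and the most UMIs of all segments, in 187, 178, 271 and 494 cells. Trbv13-1 was called in 12.3% (95% Wilson interval 8.34 to 17.8) and 12.4% (8.31 to 18) of the sgScr cells and in 33.6% (28.2 to 39.4) and 31.4% (27.4 to 35.6) of the sgArid1a cells. Trbv20 was called in 1.07% (0.294 to 3.82) and 0.562% (0.0992 to 3.11) of the sgScr cells against 26.2% (21.3 to 31.7) and 28.3% (24.5 to 32.5) of the sgArid1a cells. The intervals of the groups did not overlap for either segment. The differences were 20.1 and 26.5 points, each with an exact two-sided permutation p of 0.33. The intervals cover counting error only.

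In the opposite direction, Trbv19 held 21.9 and 23.0% of sgScr cells and 0.738 and 0.810% of sgArid1a cells, and Trbv16 16.6 and 21.9% against 8.49 and 9.51%. The pair Trav10 with Trbv13-1 led in sgArid1a, with 29.2 and 23.0% of cells that had both chains called, whereas Trav13-1 with Trbv13-1 led in sgScr with 10.1 and 11.2%. The effective number of Trbv segments (the inverse of the summed squared shares) was 8.80 and 7.5 in sgScr and 4.96 and 5.10 in sgArid1a. In the other barcodes it was 15.3, 15.1, 13.7 and 14.1, and Trbv13-1 held 7.46, 7.81, 13.5 and 12.4% there. In the cycling cells with the same receptors it was 7.65, 7.32, 3.97 and 4.46. Trbv19 led among those cells in sgScr, with 21.5 and 22.2%. In sgArid1a Trbv13-1 led there with 41.4 and 37.8%, followed by Trbv20 with 25.5 and 24.9%. The uneven segment use was thus not particular to the class. Within a group the replicates carried the same leading segments. Doublets fall among barcodes in which more than 1 Trbv segment reached 2 UMIs, and such barcodes made up 25, 18.8, 6.57 and 16.5% of the class and 10.8, 10.4, 6.75 and 13% of the others.

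**Figure D2:**
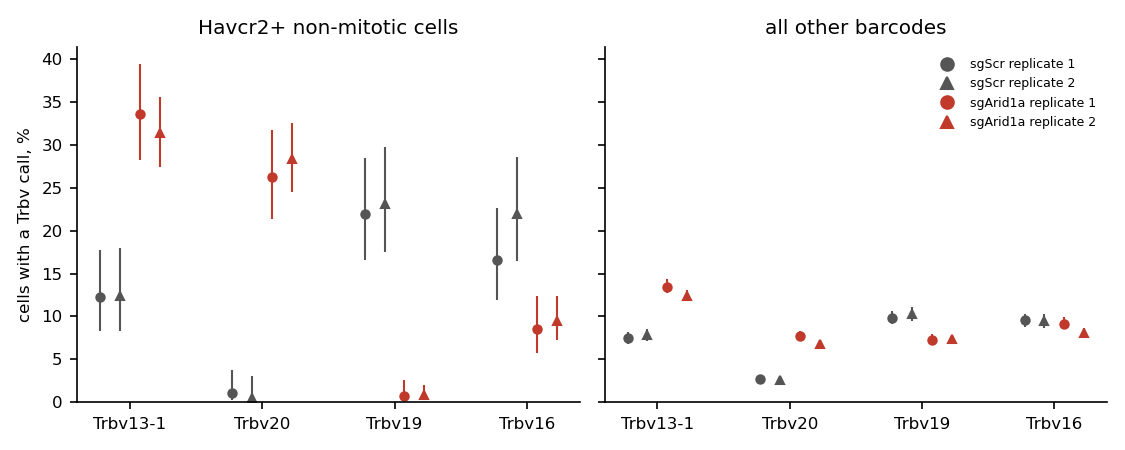
Share of cells with a Trbv call (percent, with 95% Wilson intervals) for 4 segments in the Havcr2-positive non-mitotic cells (left) and in all other barcodes (right), 1 point per sample. In the class Trbv20 lies at 26.2 and 28.3% in sgArid1a and at 1.07 and 0.562% in sgScr, and Trbv19 shows the opposite order.

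The main comparison asked how the Havcr2-positive non-mitotic cells of sgArid1a tumours differed from those of the control. In sgArid1a the class carried more transcripts of Gzmc, Gzmd, Gzme, Xcl1, Ccl3 and 11 of 25 S phase genes. It carried fewer of Gzmk, Eomes, Klrg1, Ccl5 and 6 of 18 progenitor and memory genes. UMIs were summed over the cells of each sample and tested with edgeR's quasi-likelihood test, with Benjamini-Hochberg adjustment over 8785 genes. At an adjusted p under 0.05, 324 genes (3.69%) were higher and 252 (2.87%) lower in sgArid1a, and the median log2 fold change was -0.01. Scaling to library size alone, without TMM factors, gave 214 higher and 403 lower. With any 1 of the 4 samples left out, 123 to 183 were higher and 69 to 121 lower. Such sums cannot tell fewer expressing cells from less RNA per cell. A fit with 1 sample left out leaves 1 sample in a group, so a call kept there adds no support.

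Arid1a itself, the targeted gene, stood at 74.2 and 104 CPM in sgScr and at 64.0 and 62.2 CPM in sgArid1a. The groups did not overlap, but the log2 fold change of -0.42 ± 0.15 (SE) missed the threshold (edgeR adjusted p = 0.106). With 1 sample left out the value ranged from -0.63 to -0.17. None of the 15 SWI/SNF subunits tested was called.

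Cytotoxic genes changed in composition. Of 17 tested, 6 were higher and 1 lower, with a median log2 fold change of 0.45 against -0.01 over all genes. Gzmc (ENSMUSG00000079186, chromosome 14, 56231441 to 56234656, GRCm38), a granzyme of strongly activated killer cells, stood at 32.6 and 40.4 CPM in sgScr and at 188 and 577 CPM in sgArid1a. Both sgArid1a samples were higher than both sgScr samples (log2 3.51 ± 0.42, edgeR adjusted p = 0.000367). The cells were few: at 2000 UMIs Gzmc was detected in 2.99 and 2.65% of sgScr and 9.92 and 9.11% of sgArid1a cells, against 0.716, 0.25, 1.45 and 0.832% of the cells with Tcf7 and Pdcd1 but no Havcr2, whose median depths were 4370, 4383, 3509.5 and 5521 UMIs. One cell held 30.6% of the Gzmc UMIs of sgArid1a replicate 2, and without that library the log2 fold change was 2.48.

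Its neighbours Gzmd and Gzme were called too. Gzmd had 5 and 2 UMIs in the sgScr samples and 67 and 1243 in the sgArid1a samples, of which 1 cell held 68.3% in replicate 2. Gzme stood at 13.3, 13.9, 44.1 and 137 CPM (log2 2.93 ± 0.47). The granzyme genes of this cluster are near-identical, so reads could be split between them, and each single value is uncertain.

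Gzmb rose from 751 and 803 to 996 and 1006 CPM (log2 0.45 ± 0.08, edgeR adjusted p = 0.00458), a call lost without sgScr replicate 1 (adjusted p = 0.0543). Prf1, the pore-forming protein, rose from 459 and 367 to 589 and 593 CPM (log2 0.59 ± 0.11), a call lost without sgScr replicate 2 (adjusted p = 0.0549). Gzmk (ENSMUSG00000042385, chromosome 13, 113171608 to 113225908), a granzyme of less differentiated effector and memory cells, fell from 414 and 473 to 159 and 169 CPM. Its sgArid1a values were nearly alike and far under both controls (log2 -1.36 ± 0.10, edgeR adjusted p = 3.18e-06). With 1 sample left out the log2 fold change ranged from -1.43 to -1.27.

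**Figure D3:**
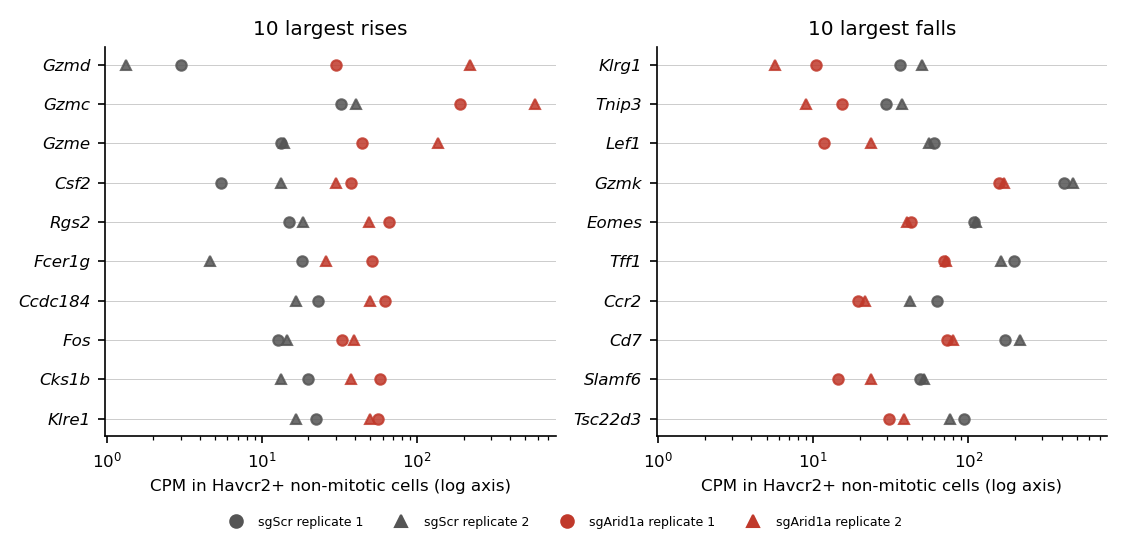
CPM per sample (log axis) in the Havcr2-positive non-mitotic cells for the 10 largest rises (left) and 10 largest falls (right) among called genes of at least 20 mean CPM whose groups did not overlap. The sgArid1a points of Gzmd, Gzmc and Gzme lie far apart from each other, whereas those of Gzmk and Eomes nearly coincide.

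Of 14 chemokine and cytokine genes tested, 8 were higher and 1 lower, with a median log2 fold change of 0.96. With any 1 sample left out 5 to 9 were higher, and DESeq2 called 4 higher. Xcl1 (chromosome 1, 164931644 to 164935527), which attracts cross-presenting dendritic cells, stood at 418 and 315 CPM in sgScr and at 797 and 1079 CPM in sgArid1a. Every sgArid1a value exceeded every sgScr value (log2 1.43 ± 0.14, edgeR adjusted p = 7.16e-05), although 1 cell held 60.3% of the Xcl1 UMIs of sgScr replicate 1. Ccl3 (chromosome 11, 83647844 to 83649355) rose from 877 and 843 to 1560 and 1627 CPM (log2 0.97 ± 0.08). Ccl4 rose from 2485 and 1309 to 2859 and 3687 CPM (log2 0.86 ± 0.21, edgeR adjusted p = 0.0263), a call lost without either sgArid1a sample (adjusted p up to 0.187). Csf2, the growth factor GM-CSF, rose from 5.43 and 13.3 to 37.8 and 30.3 CPM (log2 1.92 ± 0.30), but its value was -0.15 with the rule applied to counts thinned to 2000 UMIs.

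Ccl5 was the member that fell, from 8954 and 9624 to 5794 and 6055 CPM (log2 -0.57 ± 0.06, edgeR adjusted p = 0.000193). Ifng, the interferon of killer T cells, was at 421, 137, 265 and 469 CPM, and the groups overlapped (log2 0.48 ± 0.34, adjusted p = 0.440). A single cell held 67.2% of the Ifng UMIs of sgScr replicate 1, and without that library the log2 fold change was 1.54. Without sgScr replicate 2 it was -0.11.

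The exhaustion factors moved in both directions, 2 of 18 tested being higher and 4 lower (median -0.14). With any 1 sample left out 0 to 2 were higher and 2 to 3 lower. Eomes (chromosome 9, 118478212 to 118486132), a T-box factor of exhausted and memory cells, fell from 109 and 111 to 42.8 and 40.4 CPM (log2 -1.34 ± 0.12, edgeR adjusted p = 4.97e-05). Maf, a factor that promotes inhibitory receptor genes, fell from 17.5 and 21.2 to 4.50 and 3.54 CPM (log2 -2.25 ± 0.31). With 1 sample left out Eomes ranged from -1.38 to -1.26 and Maf from -2.37 to -1.98. Tox (chromosome 4, 6686353 to 6991557) was at 294 and 369 CPM in sgScr and at 246 and 231 CPM in sgArid1a (log2 -0.40 ± 0.11, edgeR adjusted p = 0.0455). That call remained only without sgScr replicate 1, and the adjusted p reached 0.419 in the other leave-outs. Nr4a2, an early gene of receptor signalling, rose by 0.57 ± 0.11 on the log2 scale, a call lost without sgScr replicate 2 or sgArid1a replicate 2 (edgeR adjusted p up to 0.0875), and its value was -0.14 with the rule on thinned counts.

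Of 12 inhibitory receptors outside the rule, 1 was higher and 1 lower, and the median was -0.15. Klrc1, the NKG2A chain, rose from 120 and 117 to 184 and 195 CPM (log2 0.76 ± 0.10, edgeR adjusted p = 0.000709). Cd38, an NAD-consuming surface enzyme, fell from 56.1 and 51.1 to 36.5 and 34.4 CPM (adjusted p = 0.0488), and no leave-out kept that call. Tigit was at 551, 593, 460 and 432 CPM (log2 -0.28 ± 0.09, edgeR adjusted p = 0.0693), with both sgArid1a values under both sgScr values. Ctla4 was at 79.6, 72.3, 60.4 and 60.1 CPM (edgeR adjusted p = 0.241), and Entpd1 at 68.2, 84.2, 77.0 and 61.8 CPM with overlapping groups.

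Of the 18 progenitor and memory genes tested, 6 were lower and 0 higher, with a median of -0.64, and 2 to 5 were lower with any 1 sample left out. Slamf6 fell from 48.9 and 51.7 to 14.4 and 23.6 CPM (log2 -1.22 ± 0.20). Lef1, the partner of TCF-1, fell from 59.7 and 55.7 to 11.7 and 23.6 CPM (log2 -1.48 ± 0.22). With 1 sample left out Slamf6 ranged from -1.69 to -1.03 and Lef1 from -2.19 to -1.23. The deeper sgArid1a replicate 2 was the higher of its pair for each gene. Tcf7 was at 42.8, 37.8, 18.9 and 40.0 CPM, so the groups overlapped (log2 -0.24 ± 0.26, edgeR adjusted p = 0.628), and without sgArid1a replicate 1 the value was 0.049. The 4 other members that fell were Ccr7, Il7r, S1pr1 and Foxo1.

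Among residence and migration genes 3 of 12 tested were higher and 6 lower (median -0.50). Klrg1 (chromosome 6, 122270596 to 122282882), an inhibitory receptor of short-lived effector cells, fell from 36.2 and 50.4 to 10.4 and 5.67 CPM (log2 -2.52 ± 0.28, edgeR adjusted p = 0.000162). The chemokine receptors Ccr2 and Cxcr3 fell by 1.26 ± 0.20 and 1.16 ± 0.15 on the log2 scale. The G protein regulators Rgs1 and Rgs2, which damp chemokine receptor signals, rose by 0.79 ± 0.10 and 1.80 ± 0.22.

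Quiescence genes were lower in 6 of 10 and higher in 1 (median -0.58). Tsc22d3, the glucocorticoid-induced leucine zipper, fell from 94.1 and 75.6 to 30.6 and 38.6 CPM (log2 -1.18 ± 0.16). Cdkn1b, the cell cycle inhibitor p27, fell from 91.7 and 114 to 52.3 and 53.9 CPM (log2 -0.87 ± 0.13). The riser was Klf6, a zinc finger factor, at 80.2, 101, 173 and 166 CPM.

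S phase genes rose in 11 of 25 and fell in 0 (median 0.63), and 5 to 7 rose with any 1 sample left out. Dut, which clears dUTP from the nucleotide pool, rose from 218 and 198 to 368 and 321 CPM (log2 0.80 ± 0.11), and Mcm3, a subunit of the replicative helicase, from 74.2 and 64.3 to 112 and 118 CPM (0.81 ± 0.12). Oxidative phosphorylation genes rose in 10 of 24 and fell in 0 (median 0.29), and 2 to 10 rose with any 1 sample left out. Cox5a, a subunit of cytochrome c oxidase, rose from 598 and 606 to 810 and 784 CPM (0.48 ± 0.08). As S phase UMIs were more frequent in both sgArid1a samples, the part of cell cycle phase in the other lists was not tested. Leaving out cells with 2 or more unthinned S phase UMIs kept 17, 17, 55 and 28 cells. In these, 8 of 1538 genes tested were higher and 4 lower. As unthinned counts grow with depth, that setting also removed deep cells. Holding 2 or more S phase UMIs does not by itself place a cell in S phase.

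Of 18 heat shock and dissociation genes, which tissue handling can induce, 6 were higher and 0 lower (median 0.38), and 4 to 5 were higher with any 1 sample left out. The 6 were the chaperone genes Hsp90ab1, Hspd1 and Hsp90aa1 and the early genes Jun, Fos and Dusp1. Fos rose from 12.7 and 14.6 to 32.9 and 39.5 CPM (log2 1.52 ± 0.21), and Dusp1 from 37.4 and 36.5 to 77.9 and 78.7 CPM (1.16 ± 0.14). Of 12 early genes of receptor signalling, 3 were higher and 0 lower. The part of these genes in the other changes was not tested. Markers of other cells moved as well: Fcer1g, a signalling chain of natural killer and myeloid cells, rose from 18.1 and 4.64 to 51.4 and 25.9 CPM (log2 1.66 ± 0.44), a call lost without sgScr replicate 2 or sgArid1a replicate 1. Igkc, an immunoglobulin chain of B cells, fell from 44.6 and 64.3 to 23.9 and 24.1 CPM (log2 -1.10 ± 0.18). Without the barcodes that held 2 or more UMIs of B cell, macrophage, dendritic or melanoma genes, 66, 69, 181 and 169 cells remained, with 75 genes higher and 65 lower. Their part in the changes was not tested. Those UMIs were counted without thinning, Cst3 among them, so leaving these barcodes out also removed deep cells.

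Without the cells that used Trbv13-1 or Trbv20, 179, 169, 234 and 324 cells remained, and 115 genes were higher and 106 lower.

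Of the 10 largest rises and 10 largest falls over all cells of the class, those not yet named were the rises of Ccdc184, Cks1b and Klre1 and the falls of Tnip3, Tff1 and Cd7. Tff1, a trefoil peptide gene, stood at 197 and 163 CPM in sgScr and 69.4 and 71.8 CPM in sgArid1a. Cd7, a T cell surface glycoprotein, stood at 173 and 215 CPM in sgScr and 73.0 and 79.0 CPM in sgArid1a. Their sgArid1a values lay close together and under both controls.

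Type I interferon induces its target genes through the factor ISGF3, which binds a repeat of GAAA in their promoters. Because the series concerns this pathway, 3 of its target promoters are shown: Isg15, a ubiquitin-like modifier, Bst2 (tetherin), which holds budding virus at the cell surface, and Ifit3, an antiviral protein. Each sequence is the 250 bases before the start of the gene (RefSeq, GRCm38.p6, on the strand of the gene), and capitals mark matches to GAAANNGAAA on either strand, overlaps allowed. On the opposite strand the motif reads TTTCNNTTTC.
Isg15, chr4:156200819-156201068, minus strand: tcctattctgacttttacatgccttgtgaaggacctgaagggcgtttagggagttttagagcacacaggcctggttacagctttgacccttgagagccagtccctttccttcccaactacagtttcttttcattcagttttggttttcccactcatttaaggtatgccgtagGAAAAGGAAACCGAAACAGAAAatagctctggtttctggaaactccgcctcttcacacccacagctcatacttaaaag
Bst2, chr8:71537473-71537722, minus strand: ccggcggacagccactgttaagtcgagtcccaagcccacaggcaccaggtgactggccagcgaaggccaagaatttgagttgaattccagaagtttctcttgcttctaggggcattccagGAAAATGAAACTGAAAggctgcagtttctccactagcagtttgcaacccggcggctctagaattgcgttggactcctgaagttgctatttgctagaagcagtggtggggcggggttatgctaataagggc
Ifit3, chr19:34583279-34583528, plus strand: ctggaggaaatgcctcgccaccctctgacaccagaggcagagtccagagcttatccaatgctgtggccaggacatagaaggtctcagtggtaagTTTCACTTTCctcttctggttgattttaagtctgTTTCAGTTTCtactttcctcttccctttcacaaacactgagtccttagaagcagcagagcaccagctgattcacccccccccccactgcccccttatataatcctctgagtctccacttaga
The motif occurred 3 times in the Isg15 window and 2 times each in the others. It was found in 978 of 32851 windows of this length (2.98%). Counted per gene, it was found in 936 of 27025 genes (3.46%). Of the 28 type I interferon-stimulated genes of the list with a window, 13 held it (46.4%). A match describes these letters and is not evidence of binding.

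Over all 8785 genes tested in the class, 3.69% were called higher and 2.87% lower, and the genes of this pathway are set beside these shares. Of 28 type I interferon-stimulated genes tested, 2 were higher and 0 lower, with a median of 0.08, and with any 1 sample left out 1 was higher. Isg15 (chromosome 4, 156199424 to 156200818) stood at 30.2, 55.7, 43.2 and 43.9 CPM. The sgArid1a values fell between the sgScr values (log2 0.12 ± 0.21, edgeR adjusted p = 0.795), and without sgScr replicate 1 the value was -0.26. Bst2 (chromosome 8, 71534255 to 71537456) rose from 89.9 and 98.8 to 141 and 133 CPM (log2 0.61 ± 0.11, edgeR adjusted p = 0.00605), a call lost without sgScr replicate 1 (adjusted p = 0.0624). The other was Ifi35, at 57.9, 62.3, 85.1 and 85.6 CPM, a call that no leave-out kept. Of 23 interferon-gamma response genes 2 were higher, Socs1 and Irf8. No leave-out kept the call of Socs1, and 0 to 1 of the 23 were higher with any 1 sample left out. Among 16 components of interferon induction and signalling, Rnaseh2b and Rnaseh2c, subunits of an enzyme that removes RNA from DNA, were higher, and the receptor chains Ifngr1 and Ifnar2 were lower. No leave-out kept the calls of Rnaseh2b and Rnaseh2c, and with any 1 sample left out 0 to 1 of the 16 were lower.

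The next comparison asked whether the group effect in the class differed from that in all other barcodes. It is an interaction term fitted on sums per sample of both populations, with the sample as a block, over 12530 genes. The term was positive for 260 genes (2.08%) and negative for 552 (4.41%), with a median of -0.02. Scaling to library size alone gave 159 and 1033 and shifted that median to -0.12. In place of these 812 genes, 479 were called without sgScr replicate 1 and 341 without sgArid1a replicate 2. The other barcodes were no fixed population. The cycling cells with the same receptors made up 2.90, 3.08, 7.15 and 10.1% of them, and the cells with Tcf7 and Pdcd1 but no Havcr2 6.11, 6.06, 5.31 and 9.41%. The part of this shift in the differences was not tested.

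Several exhaustion and effector genes that were higher in sgArid1a across the other barcodes had a lower ratio in the class. Tigit went from 94.8 and 104 to 151 and 149 CPM in the other barcodes, a log2 ratio of 0.58, against -0.36 in the class. The interaction was -0.85 ± 0.07 (edgeR adjusted p = 4.98e-11). Tox had ratios of 0.56 in the others and -0.47 in the class (interaction -0.94 ± 0.08). Gzmb had 1.71 and 0.37 (-1.25 ± 0.06) and Tnfrsf9 (4-1BB, a costimulatory receptor) 1.5 and 0.41 (-1.01 ± 0.08). Ccl5 was nearly level in the others, at 0.07, and at -0.65 in the class (-0.62 ± 0.05). The interactions of Tigit, Gzmb, Tnfrsf9 and Ccl5 stayed negative with each sample left out in turn. Their weakest values there were -0.84, -1.20, -0.90 and -0.53. In the cycling cells with the same receptors the ratios of Tigit, Tox, Gzmb and Ccl5 were -0.45, -0.32, 0.53 and -0.39. These signs were those of the class, so the difference from the other barcodes was not particular to it.

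By list, the term was negative for 8 of 13 inhibitory receptors and positive for 1, Vsir. It was negative for 11 of 19 exhaustion factors, for 12 of 20 glycolysis and hypoxia genes and for 9 of 18 cytotoxic genes, and positive for 0 in each. Their medians were -0.78, -0.55, -0.45 and -0.34. With any 1 sample left out, 5 to 8, 6 to 11, 8 to 11 and 5 to 9 of them were negative. Of 20 progenitor and memory genes 4 were positive and 0 negative, but with any 1 sample left out 0 to 6 were positive and 0 to 2 negative, and DESeq2 called 1 positive. Without the cells of the class that held 2 or more unthinned S phase UMIs, 12 genes had a called interaction. The values of Gzmb and Ccl5 became 0.22 and 0.18. That setting removed most of the class and counted the removed cells among the other barcodes.

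For type I interferon-stimulated genes the term was negative for 8 of 35 and positive for 0 (median -0.34), and negative for 3 to 7 with any 1 sample left out. Isg15 rose in the other barcodes from 31.0 and 33.5 to 85.5 and 84.5 CPM. The log2 ratio was 1.37 there and 0.02 in the class (interaction -1.25 ± 0.18, edgeR adjusted p = 5.62e-06). At 2000 UMIs Isg15 was detected in 6.97, 6.88, 4.83 and 6.02% of the class, in 4.36, 4.53, 11.5 and 11.5% of the other barcodes and in 5.73, 5.0, 11.1 and 10.9% of the cells with Tcf7 and Pdcd1 but no Havcr2. In sgScr the class was thus the highest of the 3 and in sgArid1a the lowest. Ifit3 had ratios of 1.04 and -0.59 (interaction -1.61 ± 0.34), and Bst2 of 0.63 and 0.53 (interaction 0.00 ± 0.10, adjusted p = 1). Without the cells of the class that held 2 or more unthinned S phase UMIs, counted there among the other barcodes, the Isg15 interaction was 0.79. The 3 genes whose promoters are printed above thus had interactions of -1.25, -1.61 and 0.00, and each of the windows holds the motif.

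**Figure D4:**
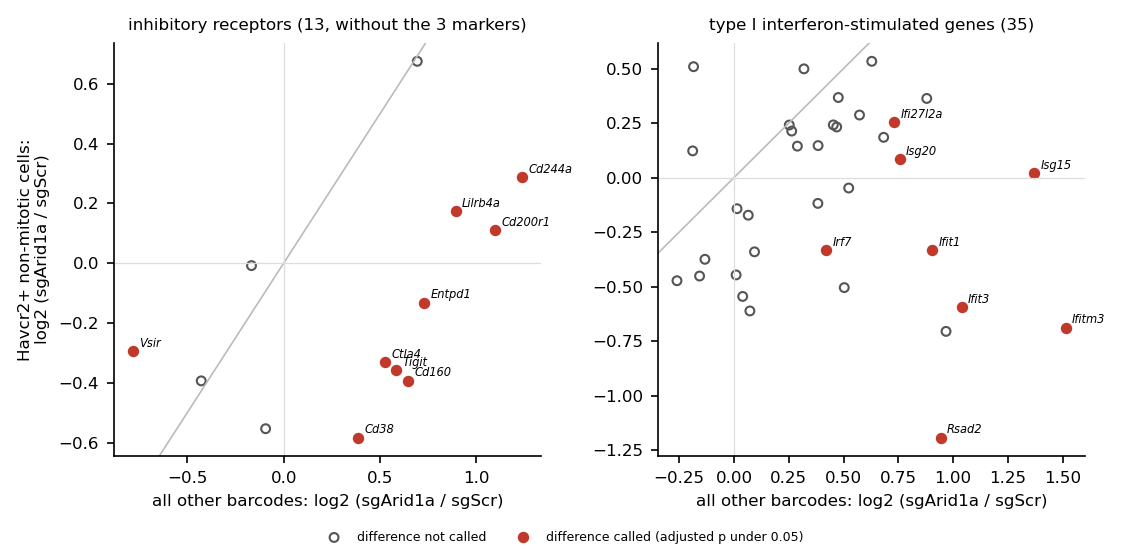
Log2 ratio of sgArid1a to sgScr in all other barcodes (x axis) against the Havcr2-positive non-mitotic cells (y axis) for 13 inhibitory receptor genes (left) and 35 type I interferon-stimulated genes (right), with red points where the interaction was called and a line of equal ratios. All called interferon-stimulated genes lie under the line, with Isg15 at 1.37 and 0.02, and so do all called inhibitory receptors except Vsir.

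**Figure D5:**
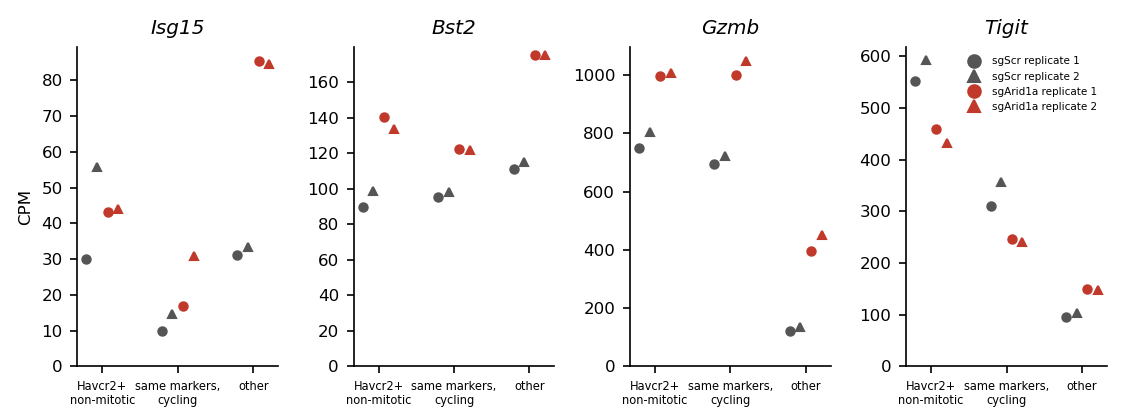
CPM per sample of Isg15, Bst2, Gzmb and Tigit in the Havcr2-positive non-mitotic cells, in the cycling cells with the same receptors and in all other barcodes (axes from 0). Isg15 overlaps between groups in the class and separates in the other barcodes, while Tigit lies lower in sgArid1a in the class and higher in the other barcodes.

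The last comparison set the class beside its cycling counterpart with the same receptors. Over 10110 genes the interaction was positive for 44 (0.435%) and negative for 26 (0.257%). In place of these 70 genes, 148 were called without sgScr replicate 2 and 28 without sgArid1a replicate 2. Of 13 inhibitory receptors 0 were called. Of 25 S phase genes 5 were positive and 0 negative, against 1 to 6 positive with any 1 sample left out and 1 by DESeq2. Stmn1 (stathmin, a microtubule regulator of dividing cells) had a log2 ratio of 1.25 in the class and 0.02 in the cycling cells (interaction 1.22 ± 0.13). Il7r, the survival receptor for interleukin-7, had -1.04 and 0.59 (-1.70 ± 0.22), and 5 of 18 progenitor and memory genes were negative, against 2 to 6 with any 1 sample left out and 1 by DESeq2. Ccl3 had 0.89 and -0.06 (0.96 ± 0.09) and Ccl4 0.79 and -0.15 (0.98 ± 0.08). The calls of this comparison depended on how cells entered the class. With the rule applied to counts thinned to 2000 UMIs, 8 genes were called, 2 of them shared with the 70. Of the 70, 65 were tested there, and 47 of these kept their sign. The interactions of Ccl3 and Ccl4 were then -1.31 and -1.06. Over the other settings run, Stmn1 ranged from 0.15 to 1.61 and Il7r from -2.23 to -0.58. Isg15 was at 9.80, 14.5, 16.9 and 30.7 CPM in the cycling cells, and its interaction of -1.04 ± 0.27 missed the threshold (edgeR adjusted p = 0.0668).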

How the data were processed

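Single-cell 5-prime libraries (10x Genomics) of 4 samples were used. The deposited matrices hold whole-number UMI counts for 32285 genes without normalization; per the file headers Cell Ranger 6.0.1 produced them. Cell Ranger 3.0.2, Seurat and mm10 are named in the submitters' processing notes, and which version applies was not settled. The release of the gene annotation: not given in the sources used here. Sample titles gave the groups and the replicate numbers. Depths are given in the report and limit the precision of low genes.

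Of 39473 barcodes, 38316 had 500 or more genes and no more than 10% mitochondrial UMIs, and the rule given in the report was applied to these. No doublet caller was run; leaving out barcodes with 2 Trbv segments was an alternative. The members and the 27 gene lists (405 of 406 symbols matched; some were drawn up for an earlier analysis) were chosen with earlier results of these data known. Rule genes were left out of list counts. UMIs were summed per sample and tested with edgeR 4.0.16 in R 4.3.3 (TMM, filterByExpr, glmQLFit, glmQLFTest) without covariates, at a Benjamini-Hochberg adjusted p under 0.05. Interactions used the sample as a block. CPM in the text are UMIs per 1000000, and ratios of CPM used a pseudocount of 1. Shares were compared with the exact two-sided permutation test. Counts were thinned with Python 3.11.15 and numpy 2.4.6 (random seed 1). Simulated counts were used to test the edgeR step. DESeq2 1.42.0 was an alternative, as were other scalings and filters, a replicate block, other member rules and leaving out each sample.

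Genes named are 10 given in advance (Arid1a, Gzmb, Prf1, Ifng, Isg15, Tox, Tcf7, Tigit, Ctla4, Entpd1), the 10 largest rises and falls among called genes of at least 20 mean CPM whose groups did not overlap, up to 3 called members of each list with the smallest p, the 6 interaction genes with the smallest p per comparison, and the rule genes; any other name was chosen after its values were seen. GENCODE M21 (GRCm38), joined by Ensembl identifier, gave the coordinates, and RefSeq the promoter windows. The results of some genes, and of a reference class of cells defined with one of them, are not reported here.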

Additional observations from a re-analysis of the deposited data

Results flagged for a closer look

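The group effect differed between the Havcr2-positive non-mitotic cells and other cells, by the edgeR interaction test, for the 6 genes with the smallest p in each comparison, among others given in the report. Against all other barcodes the interactions (log2 change in the class minus that in the others) were -1.25 for Gzmb, -0.62 for Ccl5, -1.01 for Tnfrsf9, -0.78 for Anxa2 (annexin A2, a membrane-binding protein of effector cells), -1.0 for Gzmk and -0.85 for Tigit. The signs of the 2 ratios were opposite for Tigit and, with a value of only 0.07 in the other barcodes, for Ccl5. For Gzmb, Tnfrsf9 and Anxa2 both ratios were above 0, and for Gzmk both were below 0. In the cycling cells with the same receptors the ratios of Ccl5 and Tigit were -0.39 and -0.45, below 0 as in the class.

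Against the cycling cells with the same receptors the interactions were 0.98 for Ccl4, 0.96 for Ccl3, 1.22 for Stmn1, -0.40 for Malat1 (a nuclear long noncoding RNA), 0.31 for Ptma (prothymosin alpha, a chromatin-associated protein of growing cells) and -1.70 for Il7r. Ptma had log2 ratios of 0.47 in the class and 0.18 in the cycling cells, and Malat1 of -0.73 and -0.32. Each of the 12 interactions kept its sign with each sample left out in turn. Such a fit leaves 1 sample in a group. Adjusted p-values there often fell far below those with all 4 samples, so calls in these fits add no support. The values of Ccl3 and Ccl4 were -1.31 and -1.06 when the rule was applied to thinned counts. Over the other settings run, Stmn1 ranged from 0.15 to 1.61 and Il7r from -2.23 to -0.58. Malat1 ranged from -0.49 to -0.10 and Ptma from 0.21 to 0.42.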

How the results depend on the processing

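In the main analysis 324 genes were called higher and 252 lower in the class. Library size scaling gave 214 and 403, DESeq2 161 and 79, and at least 2 UMIs of Havcr2 161 and 126. Leaving out cells with markers of other types gave 75 and 65, and leaving out Trbv13-1 and Trbv20 cells 115 and 106. The former rested on unthinned UMIs, those of Cst3 included, and so also removed deep cells. Leaving out cells with 2 or more unthinned S phase UMIs gave 8 and 4. That setting, called no S phase cells or without S phase cells below, kept 17, 17, 55 and 28 cells and also removed deep cells. The name is a short form, as 2 such UMIs do not by themselves place a cell in S phase. In its interactions with the other barcodes, the removed cells counted among those. With no filter on low counts 606 were higher, and with the cycling genes at 0, 213. Leaving out 1 sample gave 123 to 183 higher and 69 to 121 lower, with fewer samples and mostly fewer degrees of freedom. All 240 genes called by DESeq2 were among the 576 of the main analysis; it gave no adjusted p for 5110 genes.

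For the 812 interactions with the other barcodes the counts were 369 (DESeq2), 416 (2 UMIs of Havcr2), 12 (no S phase cells), 301 (no other markers) and 282 (no Trbv13-1 or Trbv20), and 341 to 711 with 1 sample left out. For the 70 with the cycling cells they were 135 (no filter), 12 (DESeq2), 26 (2 UMIs of Havcr2), 44 (all 3 markers), 16 (no S phase cells), 8 (rule on thinned counts), 21 (no other markers) and 34 (no Trbv13-1 or Trbv20), and 28 to 148 with 1 sample left out. The cause of these shifts was not tested, beyond the fewer cells that each rule leaves.

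The difference in Tcf7-detected cells, -0.66 points, had no stable sign: 0.586 with 2 UMIs of Havcr2, 0.0498 with all 3 markers, 0.266 without other markers, 0.00842 without Trbv13-1 and Trbv20, 0.243 at 1000 UMIs, and -2.63 to 1.31 with 1 sample left out. The S phase share difference was -0.612 points without thinning. The shares of the class and of Trbv13-1 and Trbv20 kept their direction in every setting run.

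Log2 fold changes that turned sign were as follows. With 2 UMIs of Havcr2 Isg15 was -0.045 and Tcf7 0.27; with all 3 markers Isg15 was -0.0246; without other markers Isg15 was -0.42; without Trbv13-1 and Trbv20 Isg15 was -0.14. With the rule on thinned counts Csf2 was -0.15, Nr4a2 -0.14 and Tcf7 0.23, and the cycling interactions of Ccl3 and Ccl4 were -1.31 and -1.06. Without S phase cells Jun was -0.39, Nfkbia -0.076 and Pgam1 -0.17, and the interactions of Ccl5, Gzmb and Isg15 were 0.18, 0.22 and 0.79. With 1 sample left out Entpd1 ranged from -0.23 to 0.13, Ifng from -0.11 to 1.54, Isg15 from -0.26 to 0.60 and Tcf7 from -0.99 to 0.049. These fits leave 1 sample in a group, so a call kept in them adds no support. Of 70 named genes called in the class, 35 were called in every leave-out and 8 in none.

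Same-numbered samples did not deviate together (r = -0.05 over 8785 genes). With 2 samples per group this cannot show whether the numbers pair samples. With the replicate number as a block 444 genes were higher and 317 lower, against 324 and 252 without it. With the block 856 and 61 interactions were called.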

Other observations

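Costimulatory receptors of the Havcr2-positive non-mitotic cells moved in both directions, 1 of 9 tested being higher in sgArid1a and 2 lower (median log2 fold change -0.06). Tnfrsf9 rose from 454 and 557 to 704 and 637 CPM, a call lost without sgScr replicate 1 or sgArid1a replicate 1 (edgeR adjusted p up to 0.126). Cd2, an adhesion receptor, fell from 478 and 506 to 348 and 347 CPM, a call lost without sgScr replicate 2 or sgArid1a replicate 2 (adjusted p up to 0.0910). Icos fell from 57.9 and 87.5 to 38.3 and 38.6 CPM, and only leaving out sgScr replicate 1 kept that call (adjusted p up to 0.161 otherwise).

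Chains of the receptor complex also differed. Cd247, the zeta chain that carries the signal inward, fell from 276 and 301 to 136 and 170 CPM (log2 -0.82 ± 0.11, edgeR adjusted p = 0.000707). With 1 sample left out its value ranged from -0.98 to -0.70. Trbc1, a constant region of the beta chain, rose from 142 and 119 to 155 and 207 CPM, a call lost without sgScr replicate 2 or sgArid1a replicate 2. Of 18 glycolysis and hypoxia genes 1 was higher (Pgam1, a call that no leave-out kept) and 0 lower, with a median of 0.03.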
